A study of Sus scrofa with 60 samples.

Results

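The transcripts described are those of the respiratory chain and ATP synthase, followed in pig liver from the fetus to 188 days of age. Members were the probe-sets (groups of short oligonucleotides that read 1 transcript) whose single annotated gene symbol began with NDUF, UQCR, ATP5 or COX with a subunit number, or was one of SDHA to SDHD, CYC1 or CYCS. One further probe-set, without a symbol in the annotation, was added as NDUFS8. This gave 84 of 23999 probe-sets and 66 of 6766 genes with 1 symbol. For each gene the probe-set with the highest mean over all arrays stood for it, and the other 18 probe-sets are described where their calls opposed it. Of the 66 genes, 33 encode subunits of complex I, 4 of complex II, 2 of complex III, 8 of complex IV and 13 of complex V. CYCS encodes cytochrome c, and 5 encode assembly factors or proteins that are no subunits. No probe-set was annotated to any of the 13 subunits that mitochondrial DNA encodes, and the catalytic core subunits of complex III were not analysed here.

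The animals were German Landrace offspring of gilts on the gestational adequate protein diet (AP), and every group shared breed, tissue and maternal diet. Livers were sampled at 94 days post conceptionem (dpc) in 15 fetuses, and at 1 day post natum (dpn) in 15 piglets, at 28 dpn in 14 and at 188 dpn in 16, with 1 Affymetrix array per animal. By the study's methods, sib pairs balanced for sex were chosen per stage, a light and a heavy sib at 94 dpc and 1 dpn. Fetuses came from a separate experiment with Caesarean section, and pigs of 28 and 188 dpn had an overnight fast. Litter, sex and weight are not in the labels, so animals were treated as independent and the p-values may be too small for sibs.

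The respiratory chain lies in the inner mitochondrial membrane. Complexes I and II pass electrons from NADH and succinate to ubiquinone, complex III passes them to cytochrome c and complex IV to oxygen, and the proton gradient built by complexes I, III and IV drives the ATP synthase, complex V. Hepatocytes spend much of this ATP on gluconeogenesis, urea formation and biosynthesis, and most subunits are encoded in the nucleus and imported.

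Levels are log2(intensity + 16), comparable between stages for 1 probe-set and not between genes. Changes are later minus earlier stage on that scale, ± the standard error (SE). Adjusted p-values are from limma with Benjamini-Hochberg adjustment over all probe-sets tested, and a gene was called at an adjusted p below 0.05. The hepatocyte markers were high throughout, with summed intensities of 10 of 10 markers between 312060 and 673687 over the 60 arrays. Array median intensities lay between 160 and 182 in fetuses, 133 and 166 in 1 dpn piglets, 107 and 125 in 28 dpn pigs and 102 and 120 in 188 dpn pigs. Median centring of the arrays therefore moved the median change of all tested probe-sets from -0.15 to 0.02 between 94 dpc and 1 dpn, from -0.10 to 0.22 between 1 and 28 dpn, and from -0.34 to 0.21 over the whole span. Quantile normalization moved it to -0.04, 0.03 and -0.02 in these comparisons. The share of called probe-sets that were higher was 36.8%, 42.2%, 39.2% and 34.3% in periods I, II and III and over the whole span, and 52.7%, 65.9%, 51.1% and 59.6% with median centring, where period I runs from 94 dpc to 1 dpn, II to 28 dpn and III to 188 dpn. One of the 18S rRNA control probe-sets stood at 12.64 to 14.41 at 28 and 188 dpn and at 8.06 to 9.57 at 94 dpc and 1 dpn, and its part in the results was not tested. In whole tissue, fewer cells of a type and less RNA per cell cannot be told apart.

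Nearly every member changed with age. In the F test over the 4 stages 64 of 66 members were called, beside 94.6% of the 5492 genes tested, so the count alone does not set the members apart. The 2 that were not called, named here after their values were seen, were NDUFA7, an accessory complex I subunit whose stage means lay within 0.17 of each other, and COX8H, the muscle form of a complex IV subunit. The stage of the extreme was less like the background. The lowest mean fell at 94 dpc in 48 of 66 members (72.7%) and in 28.7% of all genes tested. The highest mean fell at 1 dpn in 29 members (43.9%, all genes 22.2%) and at 188 dpn in 27 (40.9%, all genes 23.6%), although with median centring these became 16 and 43 members, and with quantile normalization 15 were highest at 188 dpn.

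**Figure D1:**
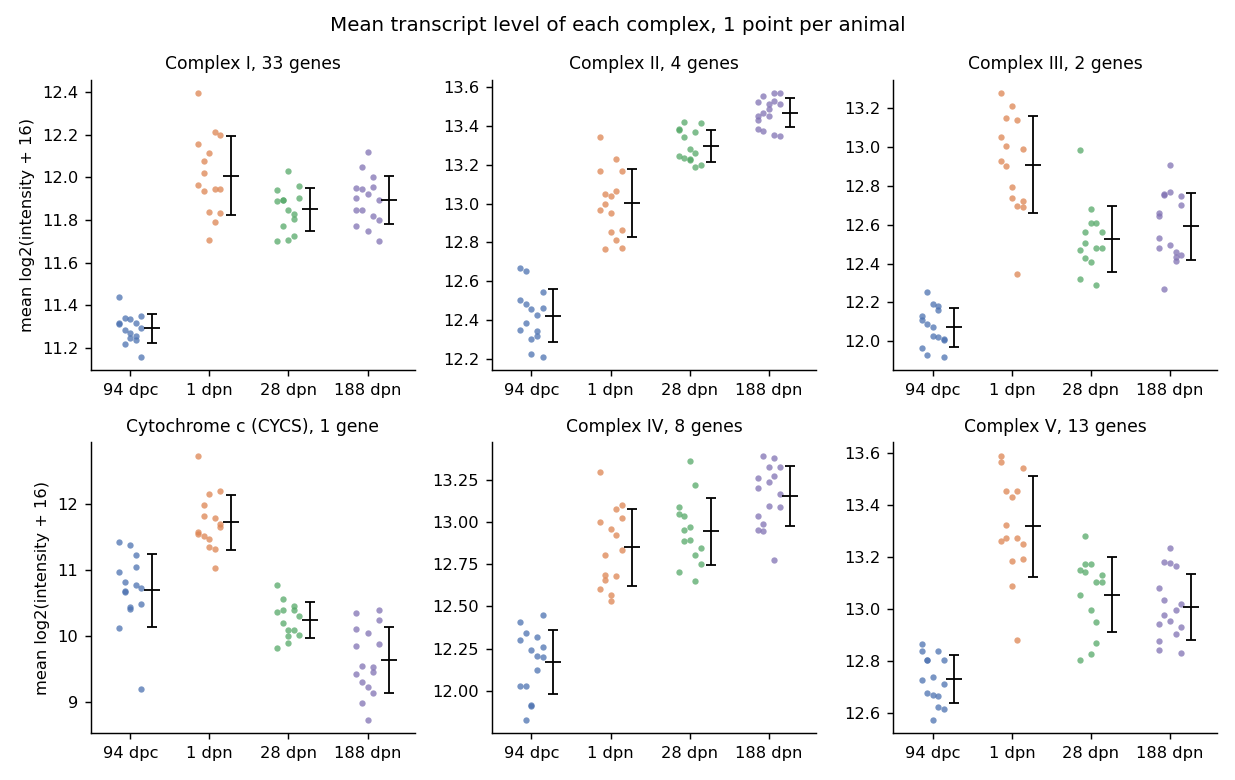
Mean log2(intensity + 16) over the genes of each complex, with stage on the x axis, 1 point per animal, and the mean ± SD beside the points (15, 15, 14 and 16 animals). Complex I animals lay between 11.16 and 11.44 at 94 dpc and between 11.71 and 12.39 at 1 dpn, and complexes II and IV had their highest means at 188 dpn (13.47 and 13.15), whereas complex V was at 13.05 at 28 dpn and 13.32 at 1 dpn, a fall that median centring turned.

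From fetus to newborn the members rose together. Below, "at birth" stands for the whole step from 94 dpc to 1 dpn. That step also covers late gestation, and no array lies within it. A rise before birth therefore cannot be told from one at birth. Between 94 dpc and 1 dpn (period I) 53 of 66 members were higher at 1 dpn and 1 was lower, beside 29.8% of 5207 tested genes higher and 35.6% lower. The median change of the members was 0.76, and that of all genes tested was -0.06. The animals of the 2 stages did not overlap in 32 rising members and 1 falling member, beside 7.05% and 5.78% of all genes. Of the 53 rises, 49 were also called with quantile normalization and with median centring. The 3′ to 5′ ratio of the GAPDH control probe-sets, a sign of RNA or cRNA quality, differed between these stages without overlap, at 0.16 to 0.66 (log2) at 1 dpn and 0.81 to 1.30 at 94 dpc. A second pair of GAPDH control probe-sets overlapped, at 0.34 to 1.43 at 1 dpn and 1.10 to 1.74 at 94 dpc. With the first ratio as a covariate 22 of the 53 rises were still called, and the median change was 0.39. As that ratio did not overlap, it is largely confounded with stage, and lost calls cannot be assigned to either. Red cell markers also moved, with 8 of the 18 listed on the array and all 8 lower at 1 dpn. Their summed intensity was 1534 to 5331 at 1 dpn and 10411 to 45742 at 94 dpc. Neutrophil markers were lower in 6 of 6, with sums of 1427 to 14268 at 1 dpn and 11284 to 33855 at 94 dpc, and megakaryocyte markers in 3 of 3. The part of these markers in the result was not tested.

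After birth the members parted. Between 1 and 28 dpn (period II) 65 members were tested, of which 11 were higher and 26 lower at 28 dpn, beside 32.2% of 5336 tested genes higher and 35.7% lower. The median change was -0.12 for the members and -0.04 for all genes, and with median centring it was 0.19 for the members, with 31 higher and 10 lower. The animals did not overlap in 1 rise, SDHC, and 4 falls, NDUFS1, NDUFB3, CYCS and NDUFAF2, beside 5.75% and 5.83% of all genes. The share of members that rose was thus below the background share, and the share that fell was close to it. Under both quantile normalization and median centring 6 of the 11 rises and 10 of the 26 falls were still called. The rises were ATP5E, COX7A1, NDUFB9, NDUFS7, SDHA and SDHC, and the falls were ATP5G1, ATP5J, CYCS, NDUFA5, NDUFAF1, NDUFAF2, NDUFB3, NDUFS1, NDUFV3 and UQCRB. The actin 3′ to 5′ ratio was 2.85 to 4.41 (log2) at 28 dpn and 1.14 to 2.23 at 1 dpn. With it as a covariate 2 members were called higher and 15 lower. These actin ranges did not overlap, so ratio and stage are largely confounded and lost calls cannot be assigned to either. The GAPDH ratio was 0.65 to 0.97 at 28 dpn and 0.16 to 0.66 at 1 dpn, and with it as a covariate 15 members were called higher and 9 lower, with a median of 0.17. Of the hepatocyte markers 1 of 10 was higher and 8 were lower at 28 dpn, with a median change of -0.44 and a median sum of 343202 at 28 dpn and 484814 at 1 dpn. Macrophage markers, 7 of 10 on the array, summed to 34402 to 59865 at 28 dpn and 16880 to 28556 at 1 dpn. The part of these markers in the result was not tested.

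Changes between 28 and 188 dpn (period III) were smaller. Of 66 members 17 were higher and 14 lower at 188 dpn, beside 17.5% of 5256 tested genes higher and 28.3% lower, with member changes between -0.60 and 0.57. The balance turned with the scaling, at 10 higher and 17 lower with quantile normalization and 22 higher and 8 lower with median centring (medians -0.02 and 0.15). Of the macrophage markers 6 of 7 were lower at 188 dpn, and of the hepatocyte markers 7 of 10 were higher, and their part in the result was not tested. Animals of the 2 stages did not overlap in 1 rise, that of SDHA, and in 0 falls, beside 0.704% and 0.913% of all genes. The comparisons share the 1 dpn and 28 dpn animals, so that a high 1 dpn mean enters period I and period II with opposite sign.

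**Figure D2:**
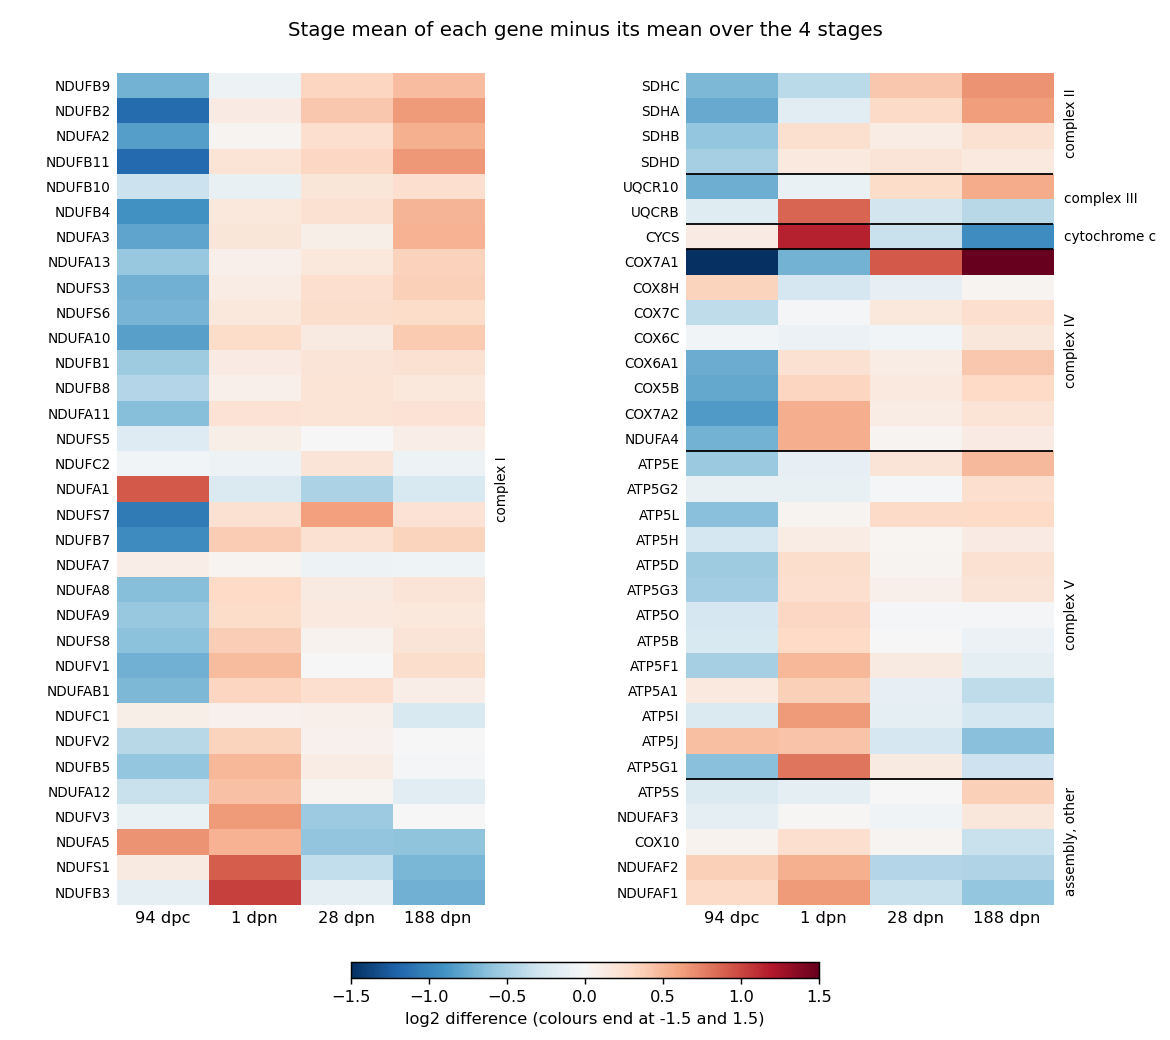
Mean log2 level of each of the 66 genes (rows, by complex) at each stage (columns) minus the mean of that gene over the 4 stages, in red where higher and in blue where lower. Most rows are lowest at 94 dpc (48 of 66), and below that shared step some rows stay high or climb to 188 dpn, such as COX7A1, while others, such as NDUFS1, NDUFB3 and CYCS, are highest at 1 dpn and low afterwards.

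In complex I, 28 of 33 genes were higher at 1 dpn than at 94 dpc and 1 was lower, with a median change of 0.85. All 6 core subunits of the matrix arm on the array, most of which carry the flavin or iron-sulfur clusters, were among the rises. So were 16 of 19 accessory subunits of the membrane arm. Among the core subunits NDUFS1 and NDUFS3 lost the call with the GAPDH ratio as a covariate (0.60 and 0.26, adjusted p = 5.5e-02 and 4.1e-01). So did the accessory subunits NDUFA2, NDUFA3, NDUFA8, NDUFA11, NDUFA12, NDUFA13, NDUFB1, NDUFB8, NDUFB9, NDUFB10, NDUFS5, NDUFS6 and NDUFV3. NDUFB11, a membrane arm accessory subunit, had the largest rise. Its lowest, median and highest levels were 11.26, 11.43 and 11.82 at 94 dpc, 12.27, 12.82 and 13.21 at 1 dpn, 12.62, 12.94 and 13.44 at 28 dpn, and 12.89, 13.26 and 13.62 at 188 dpn. Every animal at 1 dpn was above every fetus, a change of 1.36 ± 0.08 (2.58-fold, adjusted p = 5.2e-15). NDUFB11 rose again in period III (0.34 ± 0.09, adjusted p = 2.1e-03). NDUFB7, of the same arm, rose by 1.33 ± 0.09 at birth (adjusted p = 9.1e-14) and was not called in the later periods, with changes of -0.15 ± 0.09 and 0.10 ± 0.07.

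The 3 genes of the NADH end described here all rose at birth. NDUFV1, which binds NADH and its flavin, was at 10.33, 10.67 and 10.98 at 94 dpc (lowest, median, highest), 11.52, 11.88 and 12.19 at 1 dpn, 11.00, 11.42 and 11.79 at 28 dpn, and 11.02, 11.67 and 12.21 at 188 dpn. The 1 dpn animals lay wholly above the fetuses (1.20 ± 0.08, adjusted p = 4.3e-14), and the level fell by 0.49 in period II (SE 0.09, adjusted p = 2.4e-05). That call was lost with median centring (-0.17, adjusted p = 1.2e-01), with the GAPDH ratio (-0.14, adjusted p = 5.1e-01) and with the actin ratio (-0.52, adjusted p = 1.1e-01). NDUFS1, the iron-sulfur protein next to it on the electron path, had levels of 10.50, 10.69 and 10.88 at 94 dpc, 10.94, 11.40 and 12.02 at 1 dpn, 9.64, 10.20 and 10.54 at 28 dpn, and 9.33, 9.92 and 10.38 at 188 dpn. It rose by 0.77 ± 0.09 at birth (adjusted p = 3.3e-09) and then fell by 1.27 in period II (SE 0.10, adjusted p = 2.0e-12) and by 0.32 in period III (SE 0.10, adjusted p = 1.1e-02). Unlike the other core subunits, it ended lower than in the fetus, with all 16 animals at 188 dpn below all 15 fetuses (-0.82 ± 0.09, adjusted p = 2.9e-10). NDUFV2, which holds a further iron-sulfur cluster of this end, rose by 0.75 ± 0.06 at birth (adjusted p = 2.4e-12) and fell by 0.26 in period II (SE 0.07, adjusted p = 7.2e-04), a fall that median centring turned to 0.05.

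The ubiquinone end followed other courses. NDUFS7, which carries the last iron-sulfur cluster before ubiquinone, was at 10.43, 10.66 and 10.98 at 94 dpc, 11.49, 11.98 and 12.47 at 1 dpn, 12.13, 12.39 and 12.70 at 28 dpn, and 11.60, 12.00 and 12.35 at 188 dpn. It rose at birth without overlap (1.29 ± 0.09, adjusted p = 9.0e-14), rose again in period II (0.39 ± 0.09, adjusted p = 5.5e-04) and fell by 0.40 in period III (SE 0.08, adjusted p = 1.3e-04), so that its highest mean was at 28 dpn. With the actin ratio as a covariate the NDUFS7 rise of period II was not called (0.15, adjusted p = 6.9e-01). NDUFS8, another iron-sulfur subunit of this region, was at 10.74, 11.05 and 11.44 at 94 dpc and 11.44, 12.00 and 12.61 at 1 dpn, where 14 of 15 piglets were above every fetus. It rose by 1.00 ± 0.10 (adjusted p = 3.1e-10) and fell by 0.32 in period II (SE 0.11, adjusted p = 1.0e-02), which became 0.13 with the GAPDH ratio as a covariate. NDUFS3, a core subunit beside them, rose by 0.83 ± 0.09 at birth (adjusted p = 1.4e-09) and was not called afterwards, at 0.14 ± 0.10 and 0.11 ± 0.07.

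The accessory subunits also differed among themselves. NDUFB3, a membrane arm subunit, was at 10.07, 10.71 and 10.94 at 94 dpc, 11.41, 11.81 and 12.64 at 1 dpn, 10.19, 10.65 and 11.32 at 28 dpn, and 9.59, 10.11 and 10.80 at 188 dpn. The 1 dpn animals stood apart from both neighbouring stages without overlap, with a rise of 1.18 ± 0.11 (adjusted p = 4.1e-11) and a fall of equal size (-1.18 ± 0.11, adjusted p = 2.1e-10), and the level fell by a further 0.57 in period III (SE 0.11, adjusted p = 1.3e-04). NDUFB9, of the same arm, went the other way after birth, with rises of 0.63 ± 0.08 and 0.40 ± 0.08 in periods I and II (adjusted p = 8.2e-08 and 8.3e-05). NDUFB9 was not called with the GAPDH ratio in period I (0.18, adjusted p = 5.8e-01) or with the actin ratio in period II (0.30, adjusted p = 3.2e-01). NDUFB10, another member of that arm, rose by 0.21 ± 0.08 and 0.30 ± 0.09 in these periods (adjusted p = 2.7e-02 and 3.2e-03), the first rise becoming -0.08 with the GAPDH ratio as a covariate. With quantile normalization neither NDUFB10 rise was called (0.07 and 0.14, adjusted p = 4.7e-01 and 1.2e-01). Its second rise was also not called with the actin ratio (0.04, adjusted p = 9.3e-01). NDUFA3 and NDUFB4 rose in period III by 0.44 ± 0.12 and 0.28 ± 0.07 (adjusted p = 4.0e-03 and 1.7e-03). NDUFA3 was not called with the actin ratio (0.33, adjusted p = 5.3e-02), nor NDUFB4 with quantile normalization (0.11, adjusted p = 1.6e-01). NDUFA5, a matrix arm subunit named after its values were seen, was not called at birth (-0.14 ± 0.13) and fell by 1.12 in period II (SE 0.14, adjusted p = 4.9e-08). NDUFV3, a small subunit of the NADH end, fell by 1.18 in period II (SE 0.25, adjusted p = 1.0e-04), a call lost with the actin ratio (-0.82, adjusted p = 3.7e-01). Its animals spread over 5.11 to 7.98 at 28 dpn and 7.14 to 8.60 at 1 dpn, so that the lowest at 28 dpn were below the highest mean of the Tag control probe-sets (5.73), which match no pig transcript.

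On the probe-sets that stood for them, all 4 genes of complex II, succinate dehydrogenase, rose in period I. On these probe-sets 2 of 4 rose further in each later period with none called lower. With the GAPDH ratio as a covariate none of the 4 period I rises was called (SDHA 0.34, SDHB 0.50, SDHC -0.22 and SDHD 0.30, adjusted p = 1.8e-01, 5.5e-02, 4.7e-01 and 3.7e-01). SDHC, one of the membrane anchors that hold heme and bind ubiquinone, changed most after birth. Its levels were 11.16, 11.64 and 11.97 at 94 dpc, 11.51, 11.83 and 12.21 at 1 dpn, 12.46, 12.70 and 13.02 at 28 dpn, and 12.76, 12.97 and 13.29 at 188 dpn. The 28 dpn animals lay wholly above the 1 dpn piglets (0.81 ± 0.08, adjusted p = 3.7e-10), whereas the rise at birth was small (0.27 ± 0.08, adjusted p = 5.3e-03). SDHA, the flavoprotein that oxidizes succinate, was at 12.08, 12.19 and 12.47 at 94 dpc, 12.50, 12.84 and 13.08 at 1 dpn, 13.04, 13.27 and 13.36 at 28 dpn, and 13.38, 13.61 and 13.90 at 188 dpn on its brighter probe-set. On that probe-set SDHA rose in each period, by 0.59 ± 0.07, 0.45 ± 0.07 and 0.35 ± 0.06 (adjusted p = 1.1e-08, 1.5e-06 and 3.5e-05), and the 188 dpn animals were all above those of 28 dpn. The second SDHA probe-set was called lower in period II, and averaging both gave -0.51 in that period (adjusted p = 1.4e-06). SDHB, the iron-sulfur subunit, and SDHD, the other anchor, rose at birth by 0.82 ± 0.07 and 0.64 ± 0.09 (adjusted p = 3.2e-11 and 1.8e-07) and were not called afterwards on these probe-sets, with changes between -0.13 and 0.13. The second, dimmer SDHB probe-set fell by 1.17 in period II (SE 0.18, adjusted p = 9.0e-07), and averaging both gave -0.65 (adjusted p = 7.5e-07) and turned the change of SDHB over the whole span to -0.50 (adjusted p = 3.0e-06).

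The 2 complex III genes moved together at birth and apart afterwards. UQCRB, a subunit at the ubiquinone binding site, was at 11.93, 12.14 and 12.33 at 94 dpc, 12.47, 13.13 and 13.66 at 1 dpn, 11.76, 12.03 and 12.58 at 28 dpn, and 11.22, 11.94 and 12.30 at 188 dpn. All 1 dpn animals were above all fetuses (1.05 ± 0.09, adjusted p = 4.7e-12) and 13 of 14 animals at 28 dpn were below every 1 dpn piglet (-1.14 ± 0.10, adjusted p = 2.9e-11). UQCR10, a small subunit of the same complex, rose in all 3 periods, by 0.63 ± 0.09, 0.38 ± 0.10 and 0.28 ± 0.09 (adjusted p = 2.8e-07, 1.3e-03 and 1.2e-02), although the second rise became -0.16 with the actin ratio as a covariate. The period II call was also lost with quantile normalization and the GAPDH ratio (0.17 and 0.21, adjusted p = 1.3e-01 and 3.8e-01). The period III call was lost with quantile normalization and the actin ratio (0.16 and 0.17, adjusted p = 1.0e-01 and 1.5e-01).

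CYCS, the gene of cytochrome c, which carries electrons from complex III to complex IV, had the largest fall of any member in period II. Its levels were 9.20, 10.73 and 11.44 at 94 dpc, 11.04, 11.67 and 12.74 at 1 dpn, 9.82, 10.25 and 10.78 at 28 dpn, and 8.73, 9.54 and 10.40 at 188 dpn. The 1 dpn piglets overlapped with the fetuses (1.03 ± 0.17, adjusted p = 4.2e-06) but not with the 28 dpn pigs, which were lower by 2.80-fold (-1.49 ± 0.13, adjusted p = 2.8e-11). The level fell by a further 0.60 in period III (SE 0.15, adjusted p = 1.4e-03). One fetus, at 9.20, lay far below the other 14, of which the lowest was at 10.12. With the GAPDH ratio as a covariate the rise of CYCS at birth was not called (0.40, adjusted p = 5.6e-01).

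Complex IV, cytochrome c oxidase, rose at birth in 6 of 8 genes, with a median change of 0.98, and 3 rose and none was called lower in period III. In period II 1 of 7 tested genes rose and 3 fell. With median centring none of these 3 falls was called (NDUFA4 -0.19, COX7A2 -0.12 and COX5B 0.14), while COX6A1, COX6C and COX7C were called higher (0.19, 0.35 and 0.50). NDUFA4, named as a complex I subunit and now counted to complex IV, was at 12.95, 13.15 and 13.44 at 94 dpc, 13.97, 14.42 and 15.00 at 1 dpn, 13.63, 13.90 and 14.23 at 28 dpn, and 13.88, 14.03 and 14.27 at 188 dpn. The 1 dpn animals lay wholly above the fetuses (1.26 ± 0.08, 2.39-fold, adjusted p = 7.2e-15), and the level fell by 0.50 in period II (SE 0.09, adjusted p = 7.4e-06), partly overlapping. COX5B and COX6A1, structural subunits around the catalytic core, rose at birth by 1.10 ± 0.07 and 0.97 ± 0.08 without overlap (adjusted p = 2.6e-14 and 9.4e-13), and COX6A1 rose again in period III (0.29 ± 0.07, adjusted p = 1.2e-03). COX6C was not called at birth (-0.04 ± 0.07) and rose by 0.21 ± 0.07 in period III (adjusted p = 1.6e-02). With quantile normalization the period III rises of COX6A1 and COX6C were not called (0.12 and 0.03, adjusted p = 6.5e-02 and 7.1e-01). The COX6C call was also lost with the actin ratio (0.11, adjusted p = 2.2e-01).

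The isoforms of complex IV subunit 7a differed in when they changed. COX7A1, the form known from heart and skeletal muscle, had levels of 10.22, 10.48 and 11.16 at 94 dpc, 11.02, 11.54 and 12.88 at 1 dpn, 12.65, 13.21 and 13.73 at 28 dpn, and 13.29, 13.77 and 14.22 at 188 dpn. It rose in each period, by 1.00 ± 0.14, 1.64 ± 0.15 and 0.57 ± 0.10 (adjusted p = 3.1e-07, 5.7e-11 and 1.8e-05), with 11 of 15, 12 of 14 and 10 of 16 animals above every animal of the stage before. With the GAPDH ratio as a covariate the COX7A1 rise of period I was not called (0.38, adjusted p = 4.9e-01). Over the whole span all animals at 188 dpn were above all fetuses, by 3.21 ± 0.09 or 9.24-fold (adjusted p = 1.2e-25), the largest change of any member. COX7A2, the form known as the liver isoform, was at 12.27, 12.50 and 12.71 at 94 dpc, 13.19, 13.90 and 14.36 at 1 dpn, 13.05, 13.51 and 13.72 at 28 dpn, and 13.41, 13.50 and 13.98 at 188 dpn. Its step lay in period I (1.40 ± 0.08, without overlap, adjusted p = 2.1e-15), followed by a fall of 0.43 in period II (SE 0.09, adjusted p = 1.2e-04) and no call in period III (0.09 ± 0.07). The period II call of COX7A2 was lost with median centring (-0.12, adjusted p = 3.1e-01) and with the GAPDH ratio (-0.15, adjusted p = 4.8e-01). The sum of the muscle markers, 6 of the 9 listed on the array, ran against COX7A1, at 138 to 443 at 188 dpn and 1792 to 9150 at 94 dpc. TNNT3, MYH2 and MYLPF were below the highest Tag control mean at both stages, and TNNI2 at 188 dpn. Over the whole span 2 muscle markers were tested and both were lower. Their part in the COX7A1 change was not tested. COX8H, a second muscle form, had means between 6.59 and 7.18 at the 4 stages, with animals down to 5.23.

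**Figure D3:**
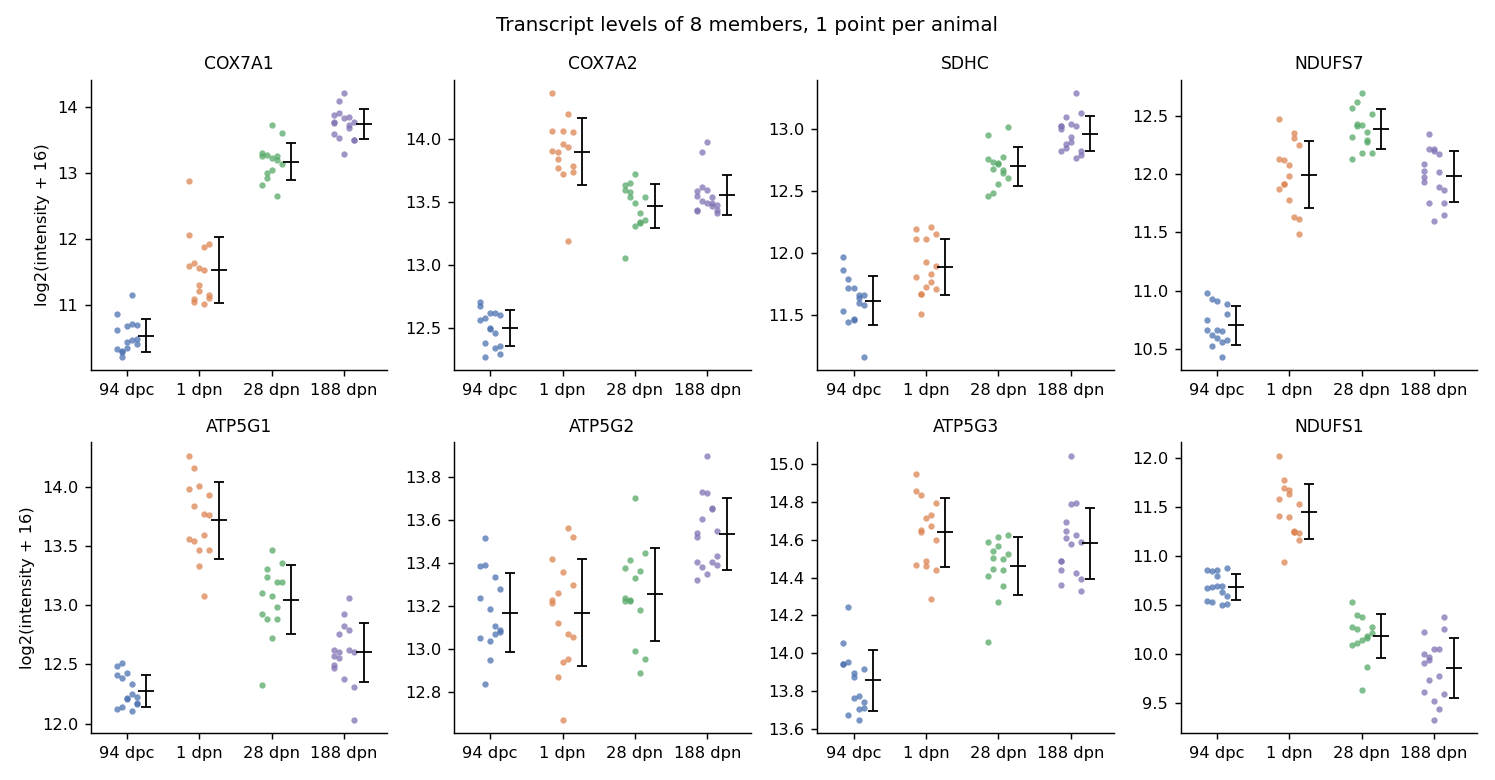
Log2(intensity + 16) of 8 members by stage, 1 point per animal, with the mean ± SD beside the points. COX7A1 climbs at every step (stage means 10.54, 11.54, 13.18 and 13.75), COX7A2 steps up once at birth, and the c ring genes differ, with ATP5G1 peaking at 1 dpn (13.72) and ATP5G2 at 13.17 both before and after birth.

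Complex V, the ATP synthase, rose at birth in 11 of 13 genes. With the GAPDH ratio as a covariate only the rises of ATP5F1, ATP5G1 and ATP5G3 were still called. ATP5A1 and ATP5B, for example, were then at 0.20 and 0.31 (adjusted p = 5.2e-01 and 2.5e-01). In period II 9 genes fell and 2 rose, and the mean over the genes of the complex changed by -0.26, or by 0.05 with median centring. ATP5A1, the alpha subunit of the catalytic head, was at 14.33, 14.47 and 14.74 at 94 dpc, 14.35, 14.71 and 15.02 at 1 dpn, 13.85, 14.22 and 14.46 at 28 dpn, and 13.73, 13.97 and 14.27 at 188 dpn. The rise at birth was small and overlapped (0.20 ± 0.07, adjusted p = 1.6e-02), and falls of 0.48 and 0.25 followed (SE 0.08 and 0.07, adjusted p = 5.7e-06 and 4.4e-03). All animals at 188 dpn lay below all fetuses (-0.53 ± 0.06, adjusted p = 2.0e-09), a difference that median centring took to 0.02. ATP5B, the catalytic beta subunit, rose by 0.53 ± 0.07 at birth (adjusted p = 1.8e-07) and fell by 0.29 in period II (SE 0.07, adjusted p = 3.6e-04), which median centring turned to 0.02. ATP5D and ATP5E, of the central stalk, both rose at birth (0.80 ± 0.10 and 0.44 ± 0.07, adjusted p = 1.5e-08 and 2.1e-06), and ATP5E rose further in period II (0.32 ± 0.07, adjusted p = 2.3e-04). That further rise was not called with the actin ratio as a covariate (0.03, adjusted p = 9.2e-01).

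The 3 genes of the c ring, ATP5G1, ATP5G2 and ATP5G3, encode the same mature protein with different import sequences, and their transcripts followed different courses. ATP5G1 was at 12.10, 12.22 and 12.51 at 94 dpc, 13.08, 13.76 and 14.26 at 1 dpn, 12.32, 13.09 and 13.47 at 28 dpn, and 12.03, 12.61 and 13.06 at 188 dpn. It had the largest rise of any member at birth, without overlap (1.44 ± 0.09, 2.71-fold, adjusted p = 1.7e-14), and then fell by 0.67 and by 0.45 (SE 0.12 and 0.10, adjusted p = 8.5e-06 and 6.3e-04). The first of these falls was not called with the GAPDH ratio as a covariate (-0.32, adjusted p = 2.4e-01). ATP5G2 was at 12.84, 13.11 and 13.52 at 94 dpc, 12.67, 13.21 and 13.56 at 1 dpn, 12.89, 13.23 and 13.70 at 28 dpn, and 13.32, 13.53 and 13.90 at 188 dpn. It was not called at birth (0.00 ± 0.09) or in period II (0.08 ± 0.09) and rose by 0.28 ± 0.08 in period III (adjusted p = 3.8e-03). ATP5G3 was at 13.65, 13.87 and 14.24 at 94 dpc, 14.29, 14.65 and 14.95 at 1 dpn, 14.06, 14.50 and 14.63 at 28 dpn, and 14.33, 14.58 and 15.04 at 188 dpn. It rose at birth without overlap (0.78 ± 0.07, adjusted p = 5.3e-11) and was lower by 0.18 in period II (SE 0.07, adjusted p = 3.3e-02), which median centring turned to 0.14.

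In the stalk and membrane part of complex V, ATP5F1, the b subunit, rose by 1.00 ± 0.07 at birth (adjusted p = 9.5e-14) and fell by 0.37 in period II (SE 0.07, adjusted p = 4.7e-05). ATP5O, which links the peripheral stalk to the head, rose by 0.56 ± 0.07 (adjusted p = 5.8e-08) and fell by 0.34 (SE 0.08, adjusted p = 6.2e-04). With median centring both period II falls lost their call (ATP5F1 -0.06 and ATP5O -0.02, adjusted p = 5.7e-01 and 8.4e-01). ATP5J, coupling factor 6, was not called at birth (-0.02 ± 0.11) and fell by 0.68 and by 0.37 in periods II and III (SE 0.09 in each, adjusted p = 1.1e-07 and 7.2e-04). Its period II fall was not called with the actin ratio (-0.35, adjusted p = 2.8e-01). ATP5L, a membrane subunit, rose by 0.67 ± 0.07 at birth and 0.25 ± 0.08 in period II on its brightest probe-set (adjusted p = 8.3e-10 and 4.0e-03). Its period II rise was not called with quantile normalization or the actin ratio (0.09 and 0.06, adjusted p = 2.7e-01 and 8.7e-01). ATP5I, the neighbour of ATP5L, varied most among complex V genes, with animals of 188 dpn from 8.46 to 11.97. Its changes of 0.85 ± 0.23 and -0.78 ± 0.32 were called in periods I and II (adjusted p = 2.0e-03 and 3.1e-02). The period II fall of ATP5I was not called with median centring (-0.47, adjusted p = 2.0e-01).

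Of the 5 members that are no subunits 1 was called at birth. This was NDUFAF1, a complex I assembly factor (0.35 ± 0.10, adjusted p = 2.4e-03), and the other 4 had changes of 0.09 to 0.20. With median centring those 4 were called higher as well (ATP5S 0.26, COX10 0.37, NDUFAF2 0.35 and NDUFAF3 0.33), and COX10 and NDUFAF2 were with quantile normalization (0.36 and 0.34). NDUFAF1 lost its call with the GAPDH and actin ratios (adjusted p = 5.7e-01 and 5.5e-02). NDUFAF1 and NDUFAF2, a further assembly factor, each fell by 0.97 in period II (SE 0.10 and 0.09, adjusted p = 9.9e-10 and 1.5e-10), and the NDUFAF2 animals of the 2 stages did not overlap. COX10, which acts in the synthesis of heme A for complex IV, fell by 0.37 in period III (SE 0.08, adjusted p = 6.5e-04). In the same period NDUFAF3 and ATP5S, a factor known as coupling factor B, rose by 0.22 ± 0.08 and 0.36 ± 0.08 (adjusted p = 3.2e-02 and 6.6e-04). The 16 measured assembly factors outside the member list gave 9 rises and no fall among 15 tested at birth, beside 29.8% of all genes higher and 35.6% lower. In period II they gave 5 rises and 8 falls among 15 tested, beside 32.2% of all genes higher and 35.7% lower. TACO1, which activates translation of a complex IV subunit, rose by 1.21 ± 0.12 at birth (adjusted p = 5.9e-10) and fell by 0.72 in period II (SE 0.12, adjusted p = 3.2e-06).

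Set against the fetus, 48 of 66 members were higher and 12 lower at 188 dpn, beside 34.7% of 5375 tested genes higher and 47.6% lower, with a median change of 0.64 for the members and -0.17 for all genes. The animals did not overlap in 36 rises and 3 falls, beside 15.0% and 20.1% of all genes. Red cell markers were lower at 188 dpn in 8 of 8, and neutrophil markers in 6 of 6, with neutrophil sums of 338 to 1658 at 188 dpn and 11284 to 33855 at 94 dpc. The actin ratio was 3.27 to 4.62 at 188 dpn and 1.54 to 2.84 at 94 dpc. The part of the markers in the result was not tested, and with the actin ratio as a covariate 37 members were called higher and 10 lower. Here too the ratio did not overlap between the stages and is largely confounded with stage. The 3 falls without overlap, named after their values were seen, were NDUFA5, NDUFS1 and ATP5A1. Of the 48 rises 38 were also called with quantile normalization and with median centring. The median change was 0.33 with quantile normalization and 1.18 with median centring. Quantile normalization turned the rises of COX6C, ATP5F1, ATP5G1, ATP5G2, ATP5H, ATP5O, NDUFA12 and NDUFS5 to lower values. Median centring turned the falls of UQCRB, ATP5A1, COX10 and NDUFC1 to higher ones.

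For 15 members several probe-sets read the same gene, and in 4 of them probe-sets were called in opposite directions in at least 1 comparison. SDHA showed this most clearly. Its second probe-set rose at birth much as the first (0.64 ± 0.06, adjusted p = 1.8e-09) and then fell by 1.46 in period II without overlap (adjusted p = 3.2e-12), where the first rose by 0.45. SDHB differed over the whole span, with 0.82 ± 0.07 on the brighter probe-set and -1.82 on the dimmer one (adjusted p = 4.0e-12 and 3.5e-13). NDUFA1, a small membrane arm subunit, was the only member called lower at birth, by 1.14 (SE 0.17, adjusted p = 5.0e-07). That value came from a probe-set whose suffix marks probes shared by several transcripts, as for 3 members in all, and the other NDUFA1 probe-set was called higher (0.54 ± 0.09, adjusted p = 2.2e-06). Over the whole span the NDUFA1 probe-sets differed likewise, at -1.14 and 0.52 (adjusted p = 9.0e-11 and 3.3e-09). The 2 dimmer ATP5L probe-sets fell in period II by 0.83 and 0.56 and over the whole span by 1.22 and 0.30, where the brightest rose, and the first of them also fell in period I (-0.36, adjusted p = 2.4e-02). The second SDHA probe-set fell over the whole span by 0.64 (adjusted p = 1.0e-05), where the first rose by 1.38. The second ATP5S probe-set fell in period I by 0.50 (adjusted p = 3.1e-03), where the first was not called. Of the 18 probe-sets that did not stand for their gene, 7 were near the Tag control level at a stage, and none of the 66 that did was. Averaging all probe-sets of a gene took the period II change of SDHA to -0.51 and the median change over the whole span to 0.39.

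**Figure D4:**
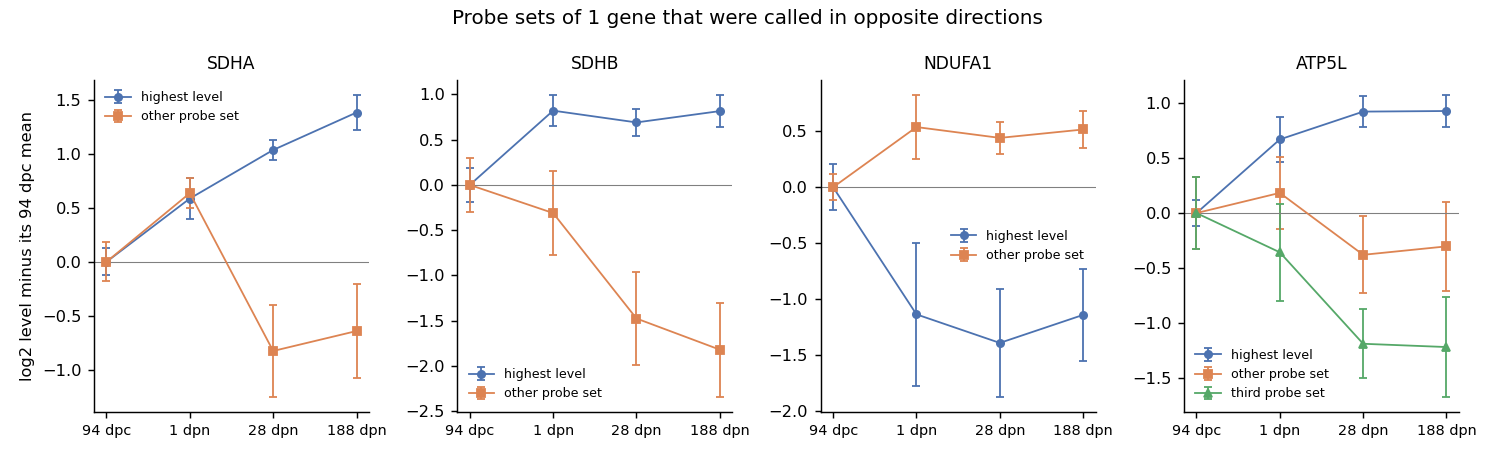
Mean log2 level at each stage minus the 94 dpc mean of the same probe-set, with SD bars, for the 4 genes with probe-sets called in opposite directions. The SDHA probe-sets rise together from 94 dpc to 1 dpn (0.59 and 0.64) and part at 28 dpn. The brighter NDUFA1 probe-set falls from 94 dpc to 1 dpn where the other rises.

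Spread between animals was widest at 1 dpn. The median SD over the 66 members was 0.16 in fetuses, 0.26 in 1 dpn piglets, 0.18 in 28 dpn pigs and 0.19 in those of 188 dpn, beside 0.25, 0.34, 0.28 and 0.31 over all genes tested. The mean over all members lay between 11.53 and 11.76 in the fetuses, between 12.03 and 12.63 in the 1 dpn piglets, between 11.95 and 12.26 at 28 dpn and between 12.01 and 12.32 at 188 dpn. Every postnatal animal was above every fetus, and the 3 postnatal stages overlapped with each other.

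Genes that feed or serve the chain gave mixed counts, to be read beside the shares over all genes of 29.8% higher and 35.6% lower in period I, 32.2% and 35.7% in period II, and 17.5% and 28.3% in period III. In the list on electron entry, coenzyme Q and cytochrome c synthesis 7 of 9 tested genes rose and 1 fell at birth, with a median change of 0.95. ETFDH and ETFB, which pass electrons from fatty acid oxidation to ubiquinone, rose by 1.48 ± 0.08 and 1.41 ± 0.08 (adjusted p = 6.8e-17 and 2.1e-16), and in period II ETFB rose by 0.53 ± 0.08 where ETFDH fell by 0.61 (SE 0.08, adjusted p = 1.6e-06 and 1.2e-07). PDSS1, an enzyme of the coenzyme Q side chain, rose by 0.95 ± 0.10 at birth and fell by 1.14 and 1.17 later (adjusted p = 1.4e-09, 2.9e-10 and 3.0e-05). Among the genes of the tricarboxylic acid cycle and pyruvate dehydrogenase 12 of 22 rose and 3 fell at birth, with a median of 0.34, and 4 of 23 rose and 11 fell in period II. MDH1, cytosolic malate dehydrogenase, fell by 1.48 in period II (SE 0.10, adjusted p = 4.6e-14), while OGDHL, a form of the oxoglutarate dehydrogenase subunit, rose by 2.04 ± 0.19 (adjusted p = 6.1e-11).

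The ADP/ATP carriers, which exchange the product of complex V across the inner membrane, took different courses. SLC25A4, the form known from heart and muscle, rose in all periods, by 1.43 ± 0.08, 0.44 ± 0.08 and 0.37 ± 0.06 (adjusted p = 1.3e-15, 3.2e-05 and 2.8e-05). SLC25A5 rose by 0.62 ± 0.07 at birth and fell by 0.85 and 0.71 afterwards (adjusted p = 1.2e-08, 5.0e-11 and 1.9e-07), and SLC25A6 fell by 0.29 and 0.31 in periods I and II (adjusted p = 9.8e-03 and 1.9e-02). The whole list of carriers and channels had 6 rises and 2 falls among 11 genes at birth, 2 and 5 in period II, and 2 and 2 in period III. In protein import and membrane upkeep 14 of 28 genes rose and 8 fell at birth, with a median of 0.19, and 5 rose and 14 fell in period II. The biogenesis and mitochondrial DNA list had 4 rises and 3 falls among 9 genes at birth, with a median of -0.08, close to that of all genes. TFAM, which packages and transcribes mitochondrial DNA, fell by 0.55 at birth (SE 0.15, adjusted p = 2.6e-03), PPARGC1A, a coactivator of mitochondrial genes, was not called (-0.11 ± 0.17), and PPARA, a receptor that drives fatty acid oxidation genes, was called higher (adjusted p = 8.4e-11). Its mean was 7.60 at 1 dpn and 5.14 at 94 dpc, where it lay below the highest Tag control mean (5.86), so that the size of the change is not given.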

How the data were processed

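Liver RNA of 60 AP offspring was hybridised to Affymetrix porcine arrays, 1 per animal, and animals were grouped by the labelled stage. The authors deposited linear intensities, 1 per probe-set and array, for which the submitters' processing notes name GCOS 1.1.1. Arrays had been scaled to a common trimmed mean, which leaves the median free. These are not the log-scale values on which the study ran its tests, and the number of arrays limits the precision.

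Each intensity was raised by 16 and taken to log2. Of 24123 probe-sets, 124 controls were left out. A probe-set was tested when above the array median in at least 50% of the animals of 1 stage compared. Stages were compared in pairs with limma 3.58.1 in R 4.3.3, two-sided, and over 4 stages with its F test; the code was tested on simulated data. Of the probe-sets, 10069 had 1 annotated symbol, 198 several and 13732 none. Symbols of 65 of 66 members were found in RefSeq (Sscrofa11.1) and 0 changed. NDUFS8 is named from the study's own use of that probe-set, and 5 probe-sets with several symbols were left out. Near background means below the highest stage mean of the 17 Tag controls.

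Members and lists were chosen with earlier results of these data known. The text names, per complex and period, up to 3 called rises and 2 called falls by size, with catalytic and isoform subunits, the members the study measured by quantitative PCR and, for other lists, some of their largest changes. Alternatives were other constants, filters and scalings, quality covariates, 1 array less per stage, all arrays in 1 model, gene means and a 2-fold limit. No sequence or coordinate was used here.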

Additional observations from a re-analysis of the deposited data

How the results depend on the processing

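Of 304 alternative values of counts, medians and complex means, 250 kept their direction and stayed within the allowed range; the causes of the other shifts were not tested, beyond fewer calls where a 2-fold limit was added. Signal over background limits NDUFV3, COX8H and the dimmer second probe-sets. No paired analysis was possible because the labels give no litter and the replicate numbers follow accession order.

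With median centring the median change was 0.93 in period I, 0.19 in period II and 1.18 over the whole span, with 31 higher and 10 lower in period II, 8 lower in period III and 7 lower over the whole span. Complex means then changed by 0.89 (I), 0.75 (II) and 0.76 (V) in period I, by 0.16 (I), 0.61 (II), -0.068 (III), 0.41 (IV) and 0.051 (V) in period II, and by 0.015 (V) in period III. The highest mean lay at 94 dpc in 1 member, at 1 dpn in 16 and at 188 dpn in 43, and the lowest at 188 dpn in 5. With quantile normalization 2 members were lower in period I, 7 higher in period II and 10 higher in period III, and the median was -0.021 in period III and 0.33 over the whole span. Complex means changed by 0.10 (II) and -0.016 (IV) in period II, and by -0.0022 (I), 0.035 (II) and -0.0043 (III) in period III. The highest mean lay at 188 dpn in 15 members, and the lowest at 1 dpn in 1 and at 28 dpn in 7.

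With the GAPDH ratio as a covariate 22 members were higher in period I (median 0.39) and 9 lower in period II (median 0.17). With the actin ratio 2 were lower in period I, 2 higher and 15 lower in period II (median -0.30) and 11 higher in period III. With a 2-fold limit 15 were higher in period I, 1 higher and 6 lower in period II, 0 higher and 0 lower in period III (17 and 14 without it, limma), and 18 higher and 4 lower over the whole span. With the mean of all probe-sets of a gene 2 members were lower in period I, 6 were lowest at 28 dpn, complex II changed by -0.074 in period II and the median over the whole span was 0.39. With the least correlated array of every stage left out 1 member was lowest at 1 dpn.

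Of 1972 alternative values of named genes 1784 were unchanged in call, 111 lost the call, 42 gained it and 35 changed sign. In period I these were NDUFB10 (-0.076), NDUFV3 (-0.59) and SDHC (-0.22) with the GAPDH ratio and ATP5S (-0.21) with averaged probe-sets. In period II they were NDUFV2 (0.050), COX5B (0.14), COX6A1 (0.19), ATP5B (0.022), ATP5D (0.10), ATP5G3 (0.14), COX10 (0.10) and NDUFAF3 (0.24) with median centring, UQCR10 (-0.16) with the actin ratio, NDUFS8 (0.13), COX5B (0.078), ATP5D (0.21) and COX10 (0.17) with the GAPDH ratio, and SDHA (-0.51) and ATP5L (-0.38) with averaged probe-sets. In period III they were ATP5E (-0.028) and ATP5L (-0.21) with quantile normalization. Over the whole span they were COX6C (-0.13), ATP5B (-0.30), ATP5F1 (-0.14), ATP5G1 (-0.10), ATP5G2 (-0.14) and ATP5O (-0.27) with quantile normalization, UQCRB (0.30), ATP5A1 (0.020) and COX10 (0.16) with median centring, COX6C (-0.12) with the actin ratio, NDUFV3 (-0.94) with the GAPDH ratio, and NDUFV2 (-0.029), SDHB (-0.50) and ATP5L (-0.20) with averaged probe-sets.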
